A study of Homo sapiens with 9 samples.

Results

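The genes described here are 39 transcripts of the NF-κB pathway and of inflammatory signalling, listed by symbol: cytokines, chemokines, their receptors, the NF-κB subunits and their inhibitors. All 39 symbols were found among the 24462 symbols in the count files, and 26 of them had enough reads to be among the 13676 genes tested. They were measured in U-373MG, an established human cell line labelled glioblastoma and astrocytoma, in 3 groups of 3 libraries. One group was exposed to 200 nM of the synthetic peptide NnK-1 for 48 h and another to 200 nM of the synthetic peptide CBRV1-10493 for 48 h, while the controls were untreated. The design text calls both peptides ShK-like and of jellyfish origin, ShK being a sea anemone toxin that blocks potassium channels. The same 3 control libraries serve both comparisons with untreated cells, and every group is the same single cell line.

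NF-κB is a family of dimeric transcription factors held in the cytoplasm by IκB proteins. Signals from receptors for TNF, interleukin 1 or microbial products activate a kinase complex that marks IκB for destruction, and the freed dimers turn on genes of inflammation together with genes of their own inhibitors. A slower, noncanonical branch, driven by other TNF family receptors, processes the product of NFKB2 and acts through RELB.

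A promoter of an NF-κB target often carries a κB site, and the windows of the RefSeq promoter table (build GRCh38.p14, from 250 bases before to 50 bases after a transcript start) show where such letters lie. Of the 39 genes, 31 have at least 1 window in that table. The NF-κB consensus of 10 letters, searched on both strands, was found in 17 of these 31 genes (54.8%), against 1937 of all 27305 genes in the table (7.09%). The list was drawn up from known NF-κB targets, so this share describes how it was chosen. The 5 chemokines that attract neutrophils are shown because their windows share 1 form of the match at nearly the same place, with its first base between 78 and 91 bases before the start, while their transcripts were scarce in these cells. In all sequences below, capitals mark the consensus match. Some capital runs hold overlapping matches on both strands, and others a match on a single strand.
CXCL1 (chr4:73869294-73869344, plus strand): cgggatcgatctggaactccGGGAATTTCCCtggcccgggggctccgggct
CXCL2 (chr4:74099243-74099293, minus strand): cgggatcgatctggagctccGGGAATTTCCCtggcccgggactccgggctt
CXCL3 (chr4:74038738-74038788, minus strand): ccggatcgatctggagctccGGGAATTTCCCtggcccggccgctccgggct
CXCL5 (chr4:73998738-73998788, minus strand): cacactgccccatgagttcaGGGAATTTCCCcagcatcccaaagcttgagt
CXCL6 (chr4:73836568-73836618, plus strand): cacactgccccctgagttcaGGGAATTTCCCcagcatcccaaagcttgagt

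The next stretches come from a chemokine without a single read, from a scarce cytokine and from 2 genes of the pathway itself that were read in every library. They show that the same kind of match stands before genes at very different levels.
CXCL11 (chr4:76036117-76036166, minus strand): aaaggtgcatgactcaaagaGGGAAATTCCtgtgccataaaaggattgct
IL6 (chr7:22727107-22727156, plus strand): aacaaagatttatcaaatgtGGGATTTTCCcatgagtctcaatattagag
NFKB1 (chr4:102501290-102501339, plus strand): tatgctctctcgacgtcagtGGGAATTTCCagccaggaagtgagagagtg
REL (chr2:60881507-60881557, plus strand): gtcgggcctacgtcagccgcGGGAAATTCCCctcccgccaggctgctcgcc

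Whole windows of 300 bases are given for 3 genes that the results return to: NFKB2, whose level with NnK-1 lay below control in each library, and NFKBIA and VCAM1, the most abundant genes with a match. NFKB2 has 3 windows in the table, 2 of them with matches, and the one shown has the larger number.
NFKB2 (chr10:102394328-102394627, plus strand): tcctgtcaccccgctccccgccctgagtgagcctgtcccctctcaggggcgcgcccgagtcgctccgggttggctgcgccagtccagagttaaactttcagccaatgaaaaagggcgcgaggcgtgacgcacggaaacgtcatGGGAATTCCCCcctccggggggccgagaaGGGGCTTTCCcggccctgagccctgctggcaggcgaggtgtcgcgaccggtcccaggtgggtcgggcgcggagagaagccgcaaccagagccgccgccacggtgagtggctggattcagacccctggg
NFKBIA (chr14:35404700-35404999, minus strand): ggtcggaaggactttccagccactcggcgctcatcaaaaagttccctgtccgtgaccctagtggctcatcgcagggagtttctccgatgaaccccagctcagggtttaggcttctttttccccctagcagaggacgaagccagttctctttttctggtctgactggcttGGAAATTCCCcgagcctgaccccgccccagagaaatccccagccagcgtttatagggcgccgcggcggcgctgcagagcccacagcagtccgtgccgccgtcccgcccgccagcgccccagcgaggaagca
VCAM1 (chr1:100719492-100719791, plus strand): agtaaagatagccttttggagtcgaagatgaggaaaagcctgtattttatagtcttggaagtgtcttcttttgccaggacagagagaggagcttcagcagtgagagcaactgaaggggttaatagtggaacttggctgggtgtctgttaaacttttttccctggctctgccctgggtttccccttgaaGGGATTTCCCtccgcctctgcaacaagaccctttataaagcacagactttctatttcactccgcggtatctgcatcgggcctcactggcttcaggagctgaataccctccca

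The libraries held between 11203094 and 13491075 counts. NnK-1 replicate 2 lay farthest from the other libraries on the first principal component of log2 CPM (19.7% of variance), and CBRV1-10493 replicate 1 on the second (14.7%). Of the 8 astrocyte and progenitor markers, VIM, NES, SOX2, S100B, SLC1A3 and GFAP were read in every library, while AQP4 had 4 reads in all and ALDH1L1 none. Of 8 microglia and macrophage markers, 6 had a read. CX3CR1 and TYROBP had none, and over 9 libraries PTPRC and AIF1 had 1 each, ITGAM 7 and CD14 17. CSF1R (0.993 to 3.19 CPM) and CD68 (1.61 to 5.04 CPM) were read in every library. The summed level of the list was 3.22 to 5.10 CPM with NnK-1, 4.88 to 6.96 CPM with CBRV1-10493 and 5.69 to 8.89 CPM in control cells. The 6 endothelial markers summed to at most 3.79 CPM in any library, and of the 6 T and B cell markers 4 had no read. As these are bulk samples, fewer cells that express a gene and less of its RNA per cell cannot be told apart.

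A small number of the 39 genes made up most of the reads, and many were near or below detection. Levels are given as CPM, the reads of a gene per 1000000 reads of its library. QuantSeq counts reads at the 3′ end of each transcript, so CPM was not divided by transcript length, and levels of different genes are set side by side on that 3′ scale. As means over 9 libraries, 4 genes lay at 100 CPM or more, 13 between 10 and 100 CPM, 7 between 1 and 10 CPM and 15 below 1 CPM. The 5 most abundant were CD70, RELA, IL11, IL6ST and CSF1, which together made 61.8% of the summed level of 1070 CPM (means over 9 libraries, all 39 genes).

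**Figure D1:**
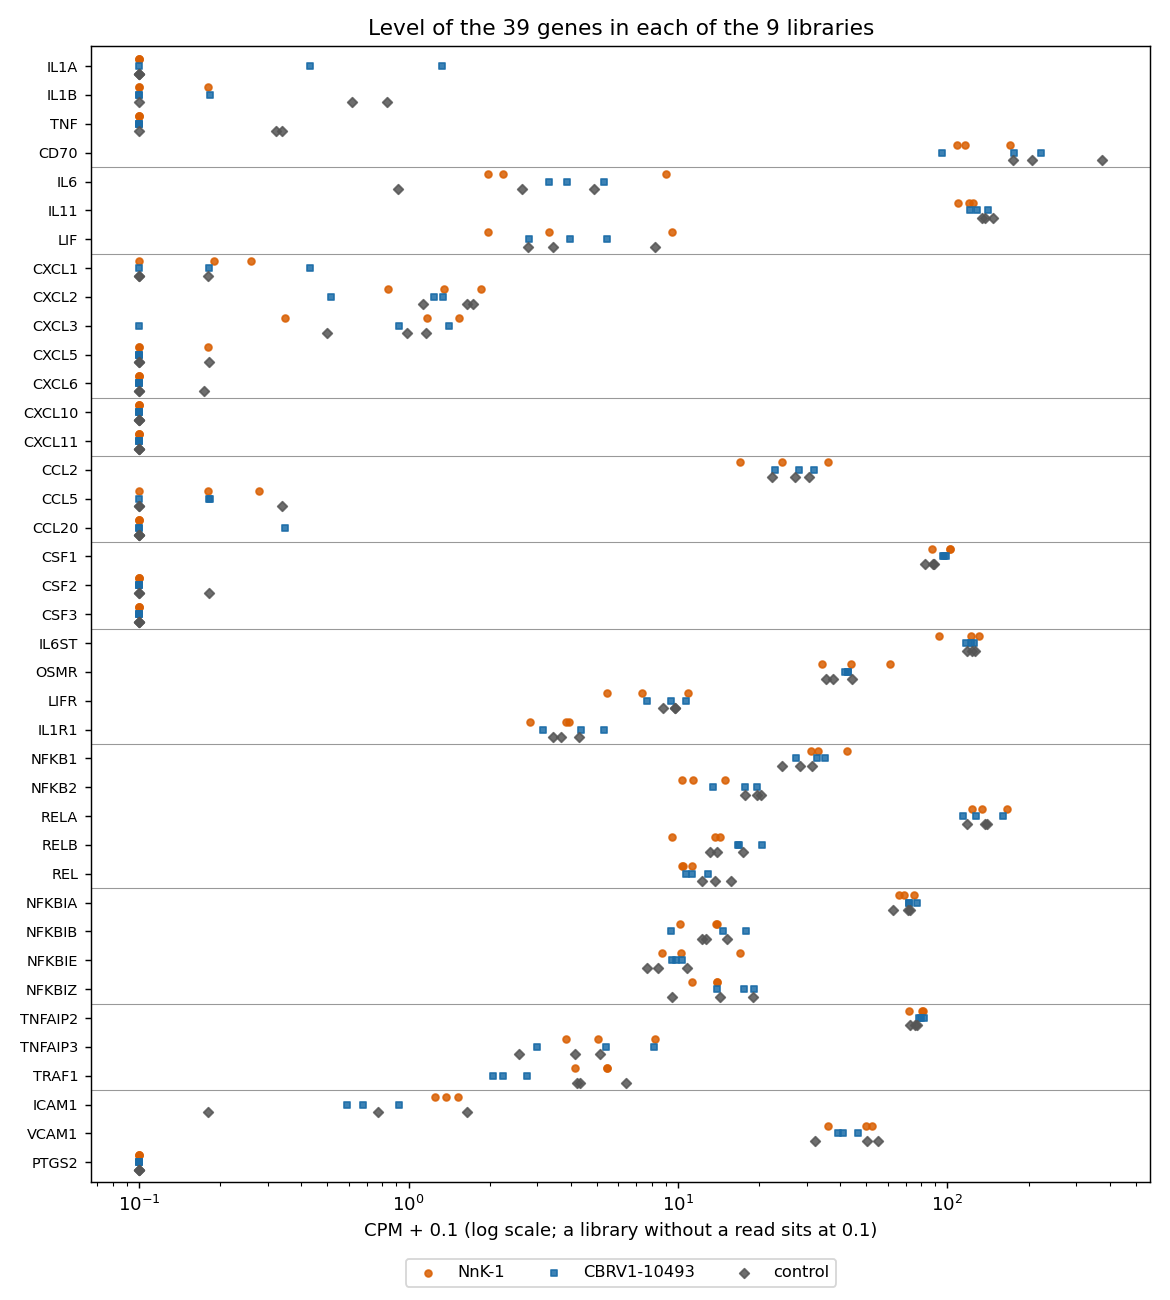
Each row is a gene, grouped by role, and each point is 1 library (orange circles NnK-1, blue squares CBRV1-10493, grey diamonds control). The horizontal axis is CPM plus 0.1 on a log scale, so a library without a read stands at 0.1. CD70, IL11, IL6ST, RELA and CSF1 lie at the right, and CXCL10, CXCL11, CSF3 and PTGS2 have no read in any of the 9 libraries.

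Genes with and without the consensus in a promoter window had similar median levels and overlapping ranges. The 17 genes with a match ranged from 0 to 70.8 CPM with a median of 3.70 CPM, and the 14 without one from 0 to 136 CPM with a median of 3.90 CPM, as means over 9 libraries. Of the 13 genes too scarce to test, 6 had a match and 5 had none. The remaining CCL5 and CSF3 have no entry in the promoter table, and neither have CCL2, CD70, CSF1, LIF, NFKBIE and RELB. A gene without a match may still carry a κB site of another form. The looser core GGAANNNCC (N for any base) was found in 27 of 45 member windows (60%), against 20.05% of all 35116 windows. Counted by window in the same way, the consensus was found in 19 of 45 (42.22%), against 5.909% of all windows.

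**Figure D2:**
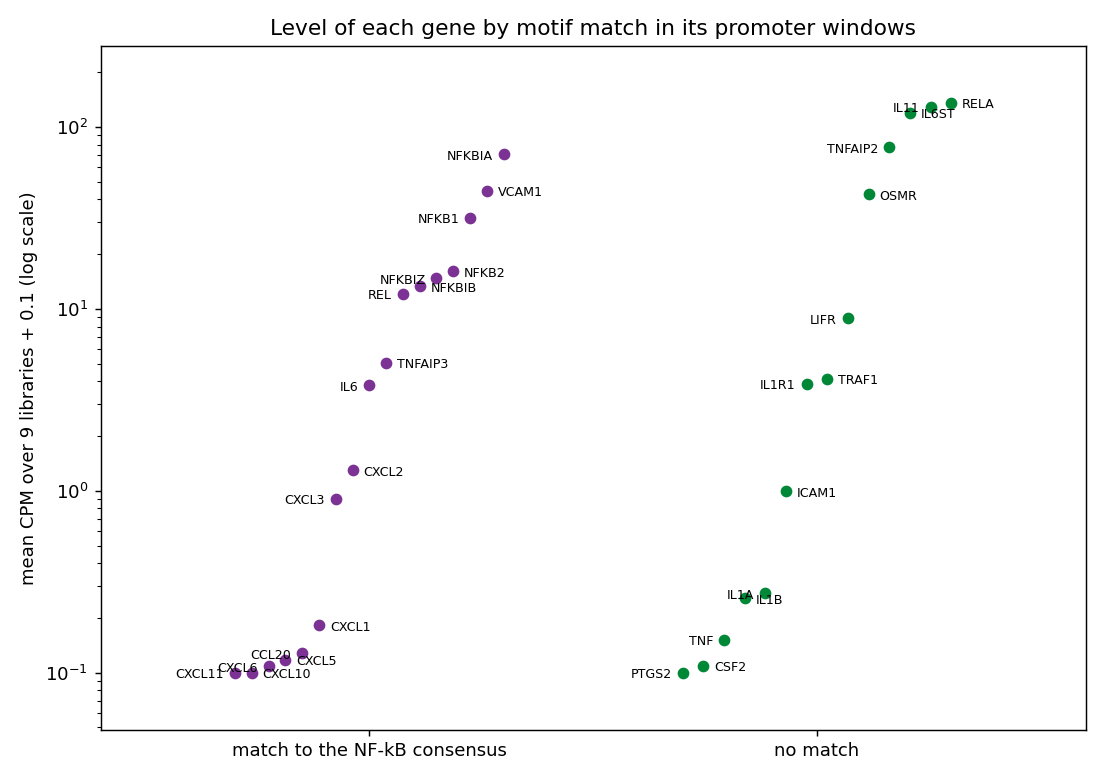
Mean CPM over 9 libraries plus 0.1, on a log axis, for the 31 genes with a RefSeq promoter window, split by whether any window holds the NF-κB consensus. Both columns run from 0 CPM (CXCL10 and CXCL11 on the left, PTGS2 on the right) to abundant genes (NFKBIA at 70.8 CPM on the left, RELA at 136 CPM on the right).

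No member passed the test in any comparison. By edgeR's quasi-likelihood test on all 9 libraries with Benjamini-Hochberg adjustment over 13676 genes, 0 of the 26 tested members were called at an adjusted p under 0.05 in each of the 3 comparisons, and over all tested genes 0% were called. DESeq2 called 0 members as well. At an unadjusted p under 0.05 there were 4 members for NnK-1 against control, where 7.32% of all genes reached it: NFKB1 was higher, where 3.76% of all genes were, and CD70, IL11 and NFKB2 were lower, where 3.56% were. In the comparison of CBRV1-10493 with control there were 2 members, where 2.89% of all genes reached it: 0 were higher (1.34% of all genes), and CD70 and TRAF1 were lower (1.55%). For CBRV1-10493 against NnK-1 there were 3 members, where 4.31% of all genes reached it: NFKB2 and RELB were higher (1.96%) and TRAF1 was lower (2.35%).

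By direction alone, the log2 fold change was above 0 for 14 of the 26 tested members with NnK-1 against control (50.6% of all genes), 15 for CBRV1-10493 against control (50.8%) and 13 for CBRV1-10493 against NnK-1 (50.3%). The median log2 fold change of the members was 0.04 for NnK-1 and 0.06 for CBRV1-10493 against control, and 0.01 for CBRV1-10493 against NnK-1, beside a median of 0.00 over all tested genes in each. The comparisons with untreated cells share their controls, so values alike in both are not independent.

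**Figure D3:**
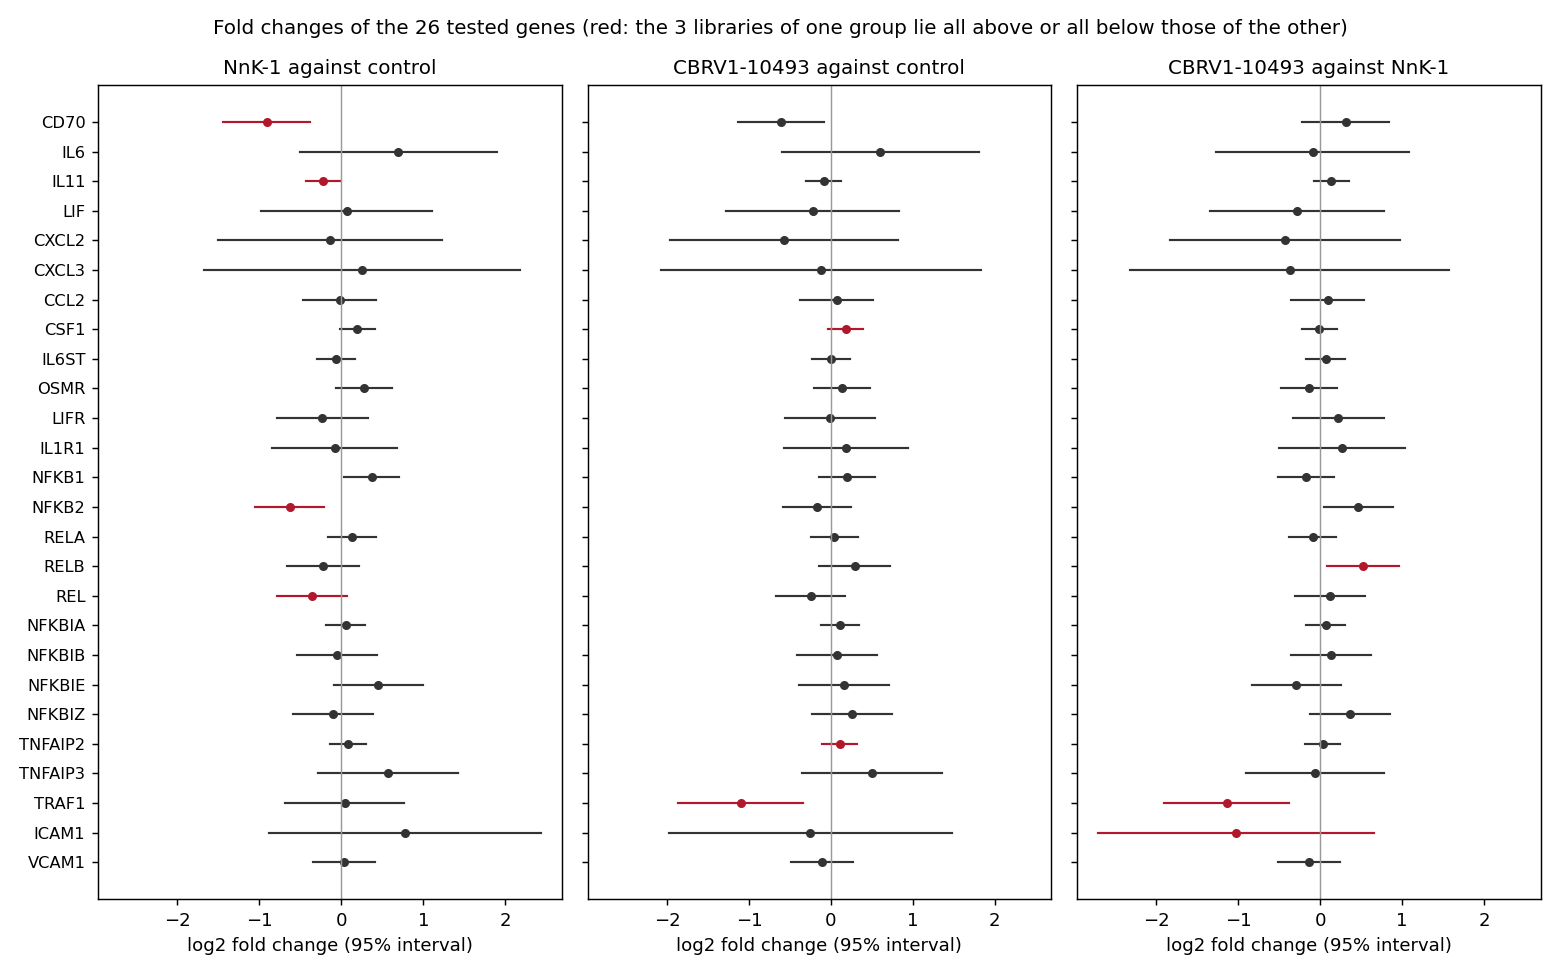
Log2 fold changes of the 26 tested genes (points) with 95% intervals (lines) in the 3 comparisons, in order of role. Red marks genes whose 3 libraries in one group lie wholly above or below those of the other, 4 for NnK-1 against control and 3 in each of the other comparisons, and the widest intervals belong to CXCL3 and ICAM1.

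Of the inflammatory cytokines CD70, the TNF family ligand of the receptor CD27, was the abundant one. CD70 stood at 171, 108 and 116 CPM with NnK-1, at 95.03, 176 and 223 CPM with CBRV1-10493, and at 376, 206 and 176 CPM in control libraries. All NnK-1 libraries lay below all control libraries, with control replicate 1 far above the other two, while the CBRV1-10493 libraries overlapped with the control libraries. The means were 132 ± 34.3 CPM with NnK-1, 165 ± 64.7 CPM with CBRV1-10493 and 252 ± 108 CPM in control cells (SD, n = 3 each). The log2 fold change was -0.91 for NnK-1 against control (95% interval -1.44 to -0.38, adjusted p = 0.499 by edgeR). For CBRV1-10493 against control it was -0.60 (-1.13 to -0.08, adjusted p = 1.00 by edgeR), and for CBRV1-10493 against NnK-1 it was 0.31 (-0.22 to 0.84). Without control replicate 1 the log2 fold changes were -0.51 for NnK-1 and -0.20 for CBRV1-10493 against control. With no filter on low counts, CD70 passed edgeR's test against control for NnK-1 (adjusted p = 5.79e-13) and for CBRV1-10493 (adjusted p = 0.000155), in a fit that gave no gene a spread of its own.

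IL1A, IL1B and TNF, cytokines that directly set off NF-κB, had too few reads for the test. IL1A had 0, 0 and 0 reads with NnK-1, 0, 15 and 4 with CBRV1-10493, and 0, 0 and 0 in control libraries. Against 3 counts over the control group the observed level with CBRV1-10493 was 6.68-fold higher. It was 2.11-fold higher without CBRV1-10493 replicate 2, which held most of the reads, and then rested on the 4 reads of replicate 3. Both ratios take the IL1A reads as exact, so they are not lower bounds. IL1B had 1, 0 and 0 reads with NnK-1, 0, 0 and 1 with CBRV1-10493, and 9, 0 and 7 in control libraries. The ratio of the IL1B level with NnK-1 to that of control was 0.0669 (95% interval 0.00159 to 0.430, exact binomial) and that with CBRV1-10493 was 0.0659 (0.00157 to 0.424). These intervals cover counting error only, and control replicate 2 had no IL1B read either. TNF, which stands on 8 entries of the files that were summed, had 0, 0 and 0 reads with NnK-1, 0, 0 and 0 with CBRV1-10493, and 0, 3 and 3 in control libraries. None of these 3 genes has a replicate test here.

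The gp130 cytokines, which signal through the shared receptor chain IL6ST, differed in level and in steadiness. IL11, a gp130 cytokine known from bone and fibrosis, stood at 119.8, 124 and 109 CPM with NnK-1, at 129, 121 and 141 CPM with CBRV1-10493, and at 148, 138 and 134 CPM in control libraries. Every NnK-1 library lay below every control library, by a small margin, and the CBRV1-10493 libraries overlapped with the controls. The means were 118 ± 7.696 CPM with NnK-1, 131 ± 10.04 CPM with CBRV1-10493 and 140.0 ± 6.88 CPM in control cells (SD, n = 3 each). The log2 fold change was -0.22 (-0.43 to -0.01, adjusted p = 0.673 by edgeR) for NnK-1 and -0.09 (-0.30 to 0.12) for CBRV1-10493, both against control. Its spread was small: 6.22% of tested genes had a lower biological coefficient of variation.

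IL6, the acute-phase cytokine, and LIF, known for keeping mouse stem cells undifferentiated, were scarce and uneven. IL6 stood at 8.92, 1.87 and 2.14 CPM with NnK-1, at 3.23, 3.77 and 5.20 CPM with CBRV1-10493, and at 4.79, 2.54 and 0.815 CPM in control libraries. LIF stood at 9.403, 1.87 and 3.22 CPM with NnK-1, at 3.89, 2.702 and 5.36 CPM with CBRV1-10493, and at 8.13, 3.34 and 2.67 CPM in control libraries. Both genes were highest in NnK-1 replicate 1, and within the control group both were highest in replicate 1. For NnK-1 against control the log2 fold change of IL6 was 0.70 (-0.51 to 1.90), and it was -0.38 without NnK-1 replicate 1. For LIF it was 0.06 (-0.98 to 1.11), and -0.84 without that library. For CBRV1-10493 against control IL6 stood at 0.60 (-0.60 to 1.81) and LIF at -0.22 (-1.28 to 0.83). That value of IL6 was 0.17 without control replicate 3 and 1.29 without control replicate 1. Of all tested genes, 91.5% had a lower biological coefficient of variation than IL6 and 88.3% a lower one than LIF.

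**Figure D4:**
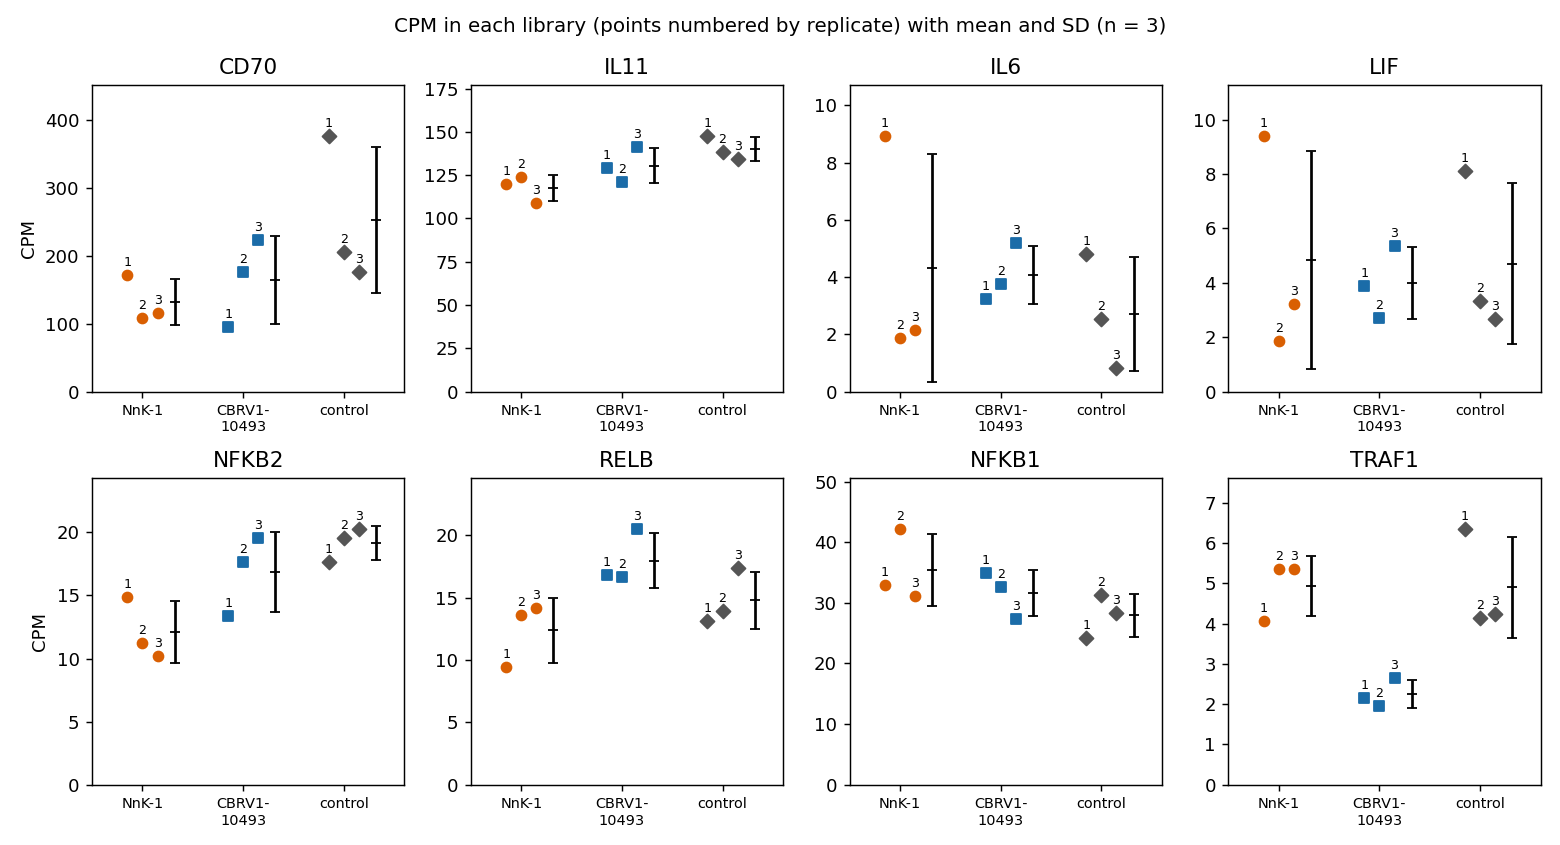
CPM in each library for 8 genes, with points numbered by replicate and the mean and SD of each group (n = 3) beside them. Every axis starts at 0. NnK-1 libraries lie below the control libraries for CD70, IL11 and NFKB2, CBRV1-10493 libraries lie below both other groups for TRAF1 and above the NnK-1 libraries for RELB, and IL6 and LIF are each highest in NnK-1 replicate 1.

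The receptors for these cytokines were read in every library, and for each of them all groups overlapped. IL6ST, the gp130 chain, averaged 115 ± 20.02 CPM with NnK-1, 122 ± 4.11 CPM with CBRV1-10493 and 123 ± 4.13 CPM in control cells (SD, n = 3 each). Its log2 fold change was -0.07 (-0.30 to 0.17) for NnK-1 and 0.00 (-0.23 to 0.24) for CBRV1-10493 against control. The oncostatin M receptor OSMR stood at 61.2, 34.3 and 43.6 CPM with NnK-1, at 41.6, 42.8 and 42.7 CPM with CBRV1-10493, and at 44.2, 37.6 and 35.2 CPM in control libraries. Its highest value was again in NnK-1 replicate 1, and its log2 fold change was 0.27 (-0.06 to 0.61) for NnK-1 and 0.14 (-0.20 to 0.48) for CBRV1-10493 against control. Without that library the value for NnK-1 was 0.04. LIFR, the LIF receptor chain, averaged 7.82 ± 2.78 CPM with NnK-1, 9.17 ± 1.504 CPM with CBRV1-10493 and 9.34 ± 0.581 CPM in control cells (SD, n = 3 each). IL1R1, the signalling receptor of interleukin 1, averaged 3.43 ± 0.6196 CPM with NnK-1, 4.17 ± 1.07 CPM with CBRV1-10493 and 3.71 ± 0.451 CPM in control cells (SD, n = 3 each).

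Chemokines were mostly scarce. CXCL1, CXCL2, CXCL3, CXCL5 and CXCL6 bind the neutrophil receptor CXCR2, and their summed level was 0.990 to 3.43 CPM with NnK-1, 0.414 to 2.54 CPM with CBRV1-10493 and 1.51 to 2.68 CPM in control cells. CXCL2 had 22, 14 and 9 reads with NnK-1, 5, 14 and 15 with CBRV1-10493, and 19, 13 and 22 in control libraries. CXCL3 had 18, 12 and 3 reads with NnK-1, 0, 16 and 10 with CBRV1-10493, and 13, 5 and 12 in control libraries. The groups overlapped for both genes, and CXCL1, CXCL5 and CXCL6 had at most 4 reads in any library. CXCL1, CXCL2 and CXCL3 are close paralogs, and the sources used here do not say how reads that fit several of them were counted. The related CXCL8, not one of the 39 genes and named after its values were seen, stood at 4.78, 1.07 and 1.15 CPM with NnK-1, at 2.98, 4.504 and 3.71 CPM with CBRV1-10493, and at 4.55, 2.94 and 5.04 CPM in control libraries, with a log2 fold change of -0.81 (-1.85 to 0.22) for NnK-1 against control.

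CXCL10 and CXCL11, which interferon and NF-κB induce, are ligands of CXCR3, a chemokine receptor found on T cells. Both had 0 reads in all 9 libraries, which allows a level of up to 0.0271 CPM over the series. That includes control replicate 2, where 36 interferon-stimulated genes summed to 1017 CPM. Their sum was 552 to 617 CPM with NnK-1, 596 to 668 CPM with CBRV1-10493 and 627 and 648 CPM in the other control libraries. CCL5, another chemokine that interferon and NF-κB induce, had 1, 2 and 0 reads with NnK-1, 0, 1 and 1 with CBRV1-10493, and 0, 3 and 0 in control libraries, and the part of the interferon-stimulated genes in this was not tested. CCL20, which attracts cells with the receptor CCR6, had its only 3 reads in CBRV1-10493 replicate 3.

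CCL2, a main attractant of monocytes, was read well in every library. It stood at 35.9, 24.2 and 16.9 CPM with NnK-1, at 31.8, 28.1 and 22.8 CPM with CBRV1-10493, and at 26.98, 30.4 and 22.2 CPM in control libraries. The groups overlapped, and the log2 fold change was -0.02 (-0.47 to 0.42) for NnK-1 and 0.07 (-0.37 to 0.52) for CBRV1-10493 against control.

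Of the colony-stimulating factors, CSF1, the growth factor of macrophages and microglia, was the expressed one. It stood at 102, 87.5 and 102 CPM with NnK-1, at 99.1, 97.2 and 95.8 CPM with CBRV1-10493, and at 82.7, 88.8 and 88.5 CPM in control libraries. Every CBRV1-10493 library lay above every control library, while NnK-1 replicate 2 lay among the controls. The log2 fold change was 0.19 (-0.02 to 0.41) for NnK-1 and 0.18 (-0.03 to 0.40) for CBRV1-10493, both against control. CSF2 had 1 read in all, in control replicate 1, and CSF3, the granulocyte factor, had none.

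The NF-κB subunits were all read in every library. RELA, the main activating subunit, stood at 124, 166 and 134 CPM with NnK-1, at 161, 127 and 114 CPM with CBRV1-10493, and at 118, 138 and 140.0 CPM in control libraries. The groups overlapped, and its log2 fold change was 0.13 (-0.16 to 0.42) for NnK-1 and 0.04 (-0.25 to 0.33) for CBRV1-10493 against control. NFKB1, its usual partner, stood at 32.9, 42.1 and 31.1 CPM with NnK-1, at 34.9, 32.6 and 27.4 CPM with CBRV1-10493, and at 24.2, 31.3 and 28.4 CPM in control libraries. Its log2 fold change was 0.37 (0.03 to 0.71, adjusted p = 0.666 by edgeR) for NnK-1 and 0.19 (-0.15 to 0.53) for CBRV1-10493 against control. NnK-1 replicate 2 was the highest library for NFKB1 and for RELA, and without it the value of NFKB1 for NnK-1 against control was 0.21.

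NFKB2, the precursor of the noncanonical branch, stood at 14.9, 11.2 and 10.2 CPM with NnK-1, at 13.4, 17.6 and 19.6 CPM with CBRV1-10493, and at 17.6, 19.5 and 20.2 CPM in control libraries. Every NnK-1 library lay below every control library, and the CBRV1-10493 libraries overlapped with both. The means were 12.1 ± 2.46 CPM with NnK-1, 16.9 ± 3.15 CPM with CBRV1-10493 and 19.1 ± 1.35 CPM in control cells (SD, n = 3 each). The log2 fold change was -0.63 (-1.05 to -0.22, adjusted p = 0.578 by edgeR) for NnK-1 against control, and -0.80 to -0.52 when libraries were left out in turn. For CBRV1-10493 against control it was -0.17 (-0.58 to 0.24), and against NnK-1 it was 0.46 (0.04 to 0.88, adjusted p = 0.994 by edgeR).

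RELB, the partner of the processed NFKB2 product, stood at 9.403, 13.6 and 14.2 CPM with NnK-1, at 16.8, 16.6 and 20.5 CPM with CBRV1-10493, and at 13.1, 13.9 and 17.3 CPM in control libraries. All CBRV1-10493 libraries lay above all NnK-1 libraries, and the control libraries overlapped with both. The log2 fold change of CBRV1-10493 against NnK-1 was 0.52 (0.08 to 0.96, adjusted p = 0.994 by edgeR). Against control it was -0.23 (-0.67 to 0.21) for NnK-1 and 0.29 (-0.14 to 0.73) for CBRV1-10493. REL, the subunit known from lymphocytes, stood at 10.4, 10.3 and 11.1 CPM with NnK-1, at 11.2, 12.9 and 10.6 CPM with CBRV1-10493, and at 15.6, 13.7 and 12.2 CPM in control libraries. The NnK-1 libraries lay wholly below the control libraries, with a log2 fold change of -0.36 (-0.78 to 0.07, adjusted p = 0.721 by edgeR).

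CD70, IL11, NFKB2 and REL were thus the 4 of 26 tested members that lay wholly lower with NnK-1 than in control cells, and 0 lay wholly higher. Over all tested genes the groups did not overlap for 13% in that comparison, with 7.92% lower and 5.08% higher. Between CBRV1-10493 and control, CSF1 and TNFAIP2 lay wholly higher and TRAF1 wholly lower, where 8.88% of all genes did not overlap, 3.91% higher and 4.96% lower. For CBRV1-10493 against NnK-1, RELB lay wholly higher and TRAF1 and ICAM1 wholly lower, where again 8.88% did not overlap, 4.71% higher and 4.17% lower.

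The genes of the IκB inhibitors, some of which NF-κB itself induces in many cells, overlapped between all groups. NFKBIA, which encodes IκBα and is a common readout of NF-κB activity, stood at 65.8, 68.7 and 75.2 CPM with NnK-1, at 76.9, 72.1 and 72.1 CPM with CBRV1-10493, and at 62.6, 72.7 and 71.1 CPM in control libraries. Its log2 fold change was 0.05 (-0.19 to 0.29) for NnK-1 and 0.11 (-0.12 to 0.35) for CBRV1-10493 against control. NFKBIB, which encodes IκBβ, averaged 12.6 ± 2.16 CPM with NnK-1, 13.9 ± 4.26 CPM with CBRV1-10493 and 13.3 ± 1.597 CPM in control cells (SD, n = 3 each). NFKBIZ, a nuclear IκB protein, averaged 12.9 ± 1.57 CPM with NnK-1, 16.8 ± 2.68 CPM with CBRV1-10493 and 14.2 ± 4.697 CPM in control cells (SD, n = 3 each). NFKBIE, which encodes IκBε, stood at 10.1, 16.9 and 8.66 CPM with NnK-1, at 10.3, 9.42 and 9.74 CPM with CBRV1-10493, and at 10.7, 8.34 and 7.56 CPM in control libraries. Its log2 fold change for NnK-1 against control was 0.45 (-0.09 to 1.00), and 0.09 without NnK-1 replicate 2. NFKBIB overlaps SIRT2 by 40 exon bases on the opposite strand in the GENCODE annotation, and the sources used here do not say whether counting used strand. In that annotation REL also shares 5702 exon bases with AC010733.2 on the same strand, and ICAM1 shares 815 with AC011511.5 on the opposite strand. Among the other overlaps, all on the opposite strand, IL6ST shares 530 with AC008914.1 and IL6 375 with AC073072.1. LIF shares 175 with AC004264.1 and 92 with LIF-AS1. Each value is the longest overlap between exons of the pair, and reads there may belong to either gene. Of the partners named, only SIRT2 is a symbol in the count files.

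TRAF1, an adaptor of TNF family receptors and an NF-κB target in lymphocytes, was lowest in the CBRV1-10493 libraries. It stood at 4.06, 5.36 and 5.36 CPM with NnK-1, at 2.15, 1.97 and 2.64 CPM with CBRV1-10493, and at 6.34, 4.13 and 4.23 CPM in control libraries, on 51, 60 and 65 reads with NnK-1, 26, 24 and 32 with CBRV1-10493, and 78, 52 and 57 in control libraries. Every CBRV1-10493 library lay below every library of the other groups, and NnK-1 and control libraries overlapped. The log2 fold change was -1.10 (-1.86 to -0.34, adjusted p = 1.00 by edgeR) for CBRV1-10493 against control. Against NnK-1 it was -1.14 (-1.90 to -0.38, adjusted p = 0.994 by edgeR), while NnK-1 against control gave 0.04 (-0.69 to 0.76). With each library left out in turn the value for CBRV1-10493 was -1.23 to -0.88 against control and -1.27 to -1.05 against NnK-1.

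TNFAIP3, which encodes the enzyme A20 that shuts NF-κB signalling down, stood at 3.75, 8.12 and 4.95 CPM with NnK-1, at 8.02, 5.32 and 2.89 CPM with CBRV1-10493, and at 4.06, 2.46 and 5.04 CPM in control libraries. The groups overlapped, and its log2 fold change was 0.57 (-0.29 to 1.42) for NnK-1 and 0.50 (-0.35 to 1.36) for CBRV1-10493 against control. These values were 0.18 without NnK-1 replicate 2 and 0.10 without CBRV1-10493 replicate 1. TNFAIP2, a TNF-induced gene, averaged 77.8 ± 5.05 CPM with NnK-1, 79.9 ± 1.76 CPM with CBRV1-10493 and 74.96 ± 2.33 CPM in control cells (SD, n = 3 each). Its CBRV1-10493 libraries lay above all control libraries by a narrow margin, with a log2 fold change of 0.11 (-0.11 to 0.32).

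The adhesion molecules that bind leukocyte integrins differed widely in level. VCAM1 stood at 35.9, 49.8 and 52.5 CPM with NnK-1, at 41.02, 46.4 and 39.2 CPM with CBRV1-10493, and at 32.2, 50.03 and 55.1 CPM in control libraries. All groups overlapped, and the log2 fold change was 0.04 (-0.34 to 0.41) for NnK-1 and -0.10 (-0.48 to 0.27) for CBRV1-10493 against control. ICAM1 had 16, 16 and 14 reads with NnK-1, 7, 6 and 10 with CBRV1-10493, and 19, 1 and 9 in control libraries. The NnK-1 libraries lay above all CBRV1-10493 libraries, but the control libraries reached beyond both, and the log2 fold change of CBRV1-10493 against NnK-1 was -1.03 (-2.71 to 0.66). PTGS2, the inducible enzyme of prostaglandin synthesis, had 0 reads in all 9 libraries.

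At matched dose and time the peptides were set against each other for all 26 tested members, with p-values adjusted over all 13676 genes, and 0 passed the test. Beside TRAF1, ICAM1, RELB and NFKB2, given above, further 95% intervals follow. They are not adjusted over genes, so larger differences than their ends could also have gone uncalled. For NFKBIA the log2 fold change of CBRV1-10493 against NnK-1 was 0.06 (-0.17 to 0.30), for CSF1 -0.01 (-0.22 to 0.20) and for TNFAIP2 0.03 (-0.19 to 0.24). For IL6 it was -0.09 (-1.27 to 1.08) and for CXCL3 -0.37 (-2.32 to 1.57), intervals that reach beyond 1 on both sides.

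Other genes of the pathway, from 6 further lists, gave 0 calls in any comparison by edgeR. All 31 adaptors and kinases upstream of NF-κB were tested, with a median log2 fold change of 0.02 for NnK-1 and -0.01 for CBRV1-10493 against control. Of 32 receptors of inflammatory ligands 12 were tested (medians -0.26 with NnK-1 and -0.09 with CBRV1-10493), and of 29 further ligands 13 (-0.08 with NnK-1 and -0.13 with CBRV1-10493). Of 44 further NF-κB targets 38 were tested (-0.05 with NnK-1 and 0.02 with CBRV1-10493), and of 20 genes of gp130 and STAT3 signalling 18 (-0.03 with NnK-1 and 0.00 with CBRV1-10493). Of 22 negative regulators 17 were tested, with medians of 0.14 with NnK-1 and 0.06 with CBRV1-10493.

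The genes of lowest p per list did not pass either. ZC3H12A, which encodes a ribonuclease that degrades the transcripts of IL6 and other cytokines, stood at 13.9, 21.2 and 18.8 CPM with NnK-1, at 15.2, 16.1 and 14.9 CPM with CBRV1-10493, and at 10.7, 12.1 and 10.8 CPM in control libraries. Every treated library lay above every control library, and its log2 fold changes were 0.71 (0.29 to 1.13, adjusted p = 0.507 by edgeR) for NnK-1 and 0.47 (0.05 to 0.89, adjusted p = 1.00 by edgeR) for CBRV1-10493. BCL6, a transcriptional repressor, stood at 10.5, 12.4 and 16.4 CPM with NnK-1, at 10.1, 14.9 and 13.8 CPM with CBRV1-10493, and at 22.02, 18.5 and 17.7 CPM in control libraries. Its treated libraries all lay below the controls, with log2 fold changes of -0.54 (-0.98 to -0.09) for NnK-1 and -0.57 (-1.01 to -0.13) for CBRV1-10493. Over all tested genes 5.08% lay wholly higher with NnK-1 than in control cells, and 7.92% wholly lower. With CBRV1-10493 these shares were 3.91% and 4.96%. ZC3H12A and BCL6 were picked by their p in these same libraries, and the comparisons with untreated cells share their controls. PLAUR, the urokinase receptor, gave -0.32 (-0.60 to -0.05) for NnK-1 against control and 0.35 (0.08 to 0.63) for CBRV1-10493 against NnK-1.

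Further genes named by the same rule were TNFSF10, which encodes the death ligand TRAIL, at -0.34 (-0.72 to 0.03), TNFRSF12A, the receptor of TWEAK, at -0.30 (-0.59 to 0.00), TNFRSF1A, the main TNF receptor, at 0.21 (0.00 to 0.43), and NINJ1, a membrane protein, at -0.31 (-0.59 to -0.03), all log2 fold changes of NnK-1 against control. For CBRV1-10493 against control TNFSF13B, which encodes BAFF, gave -1.87 (-3.69 to -0.06) and STAT5A, a transcription factor of cytokine receptors, -0.82 (-1.56 to -0.08). For CBRV1-10493 against NnK-1 the scaffold gene CARD10 gave -0.60 (-1.03 to -0.16), MAP3K7, which encodes the kinase TAK1, -0.27 (-0.51 to -0.03), and the pseudokinase gene TRIB3 -0.60 (-1.02 to -0.17). None of these genes passed the adjusted threshold in any comparison, and each is given for a single comparison only. As they were picked by their p in these same libraries, intervals that leave out 0 are no evidence of a change. The interval of TNFSF13B was the widest among them.

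NnK-1 replicate 1 was the highest of all 9 libraries for 7 of the 26 tested members, among them IL6, LIF, OSMR and CCL2, where 14% of all tested genes peak in that library. NnK-1 replicate 2, which lay apart on the first component, was the highest for 4 members and the lowest for 6, where 14.8% and 20.8% of all genes have their highest and lowest value. Control replicate 2, the library with the highest sum of interferon-stimulated genes, was the highest for 0 of the 26 members, where 11.3% of all genes peak.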

How the data were processed

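RNA of U-373MG cells was read in 9 QuantSeq 3′ libraries. The deposited files hold the authors' read counts per gene symbol, which were assumed to be raw. Per the submitters' processing notes, Bowtie2 and bedtools were used with build hg19 (how reads were assigned is not stated in those notes). Per the design text the authors normalized with TMM and CPM in edgeR.

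Entries of the same symbol were summed (25737 entries, 24462 symbols), and CPM is count over library total. Genes were kept by filterByExpr (minimum count 10, minimum total 15), scaled by TMM and tested two-sided with edgeR 4.0.16 (R 4.3.3, quasi-likelihood, 1 fit of all libraries), adjusted over 13676 genes at 0.05. The biological coefficient of variation common to all genes was 0.169, and at 5 CPM or more the 95% interval reached a median of 0.33 (log2) to each side. The fit was checked on simulated data. No label gives separate cultures, so p-values reflect the spread between samples, which may be technical. Each pair of libraries differed beyond sampling noise.

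The 39 genes and the further lists were chosen with earlier results of these data known. All 39 are named, and from each further list up to 2 genes with the smallest p. CXCL8 was added outside this rule, after its values were seen. Alternatives were DESeq2's size factors, DESeq2 1.42.0, no filter, at least 5 CPM in 3 libraries, the replicate number as a block and each library left out. A count of 0 allows up to 3 counts, and such limits cover counting error only.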

Additional observations from a re-analysis of the deposited data

How the results depend on the processing

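No member was called with any library left out, nor with DESeq2's size factors, at least 5 CPM in 3 libraries, the replicate block or DESeq2's own test. Over all genes DESeq2 called 3 for NnK-1 against control, against 0 by edgeR (1001 at an unadjusted p under 0.05 by edgeR, 1030 by DESeq2). Without the filter on low counts edgeR called 74, 6 and 1 genes for NnK-1 against control, for CBRV1-10493 against control and between the peptides, and among them CD70 as 1 member in each of the comparisons with control (log2 fold change -0.91, adjusted p = 5.79e-13, and -0.60, adjusted p = 0.000155). In that fit the prior degrees of freedom were infinite, so every gene was given the spread of the trend, while with the filter their median was 13.6. The replicate block called 0 genes in each comparison. Deviations of same-numbered libraries from their group means had correlations across genes of -0.057 to 0.13 (1 of 9 pairs above 0.1). Those of libraries with other numbers were -0.093 to 0.097. With 3 libraries per group, these values cannot tell whether the numbers mark a shared culture or day.

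Of the 78 fold changes of members 43 kept their sign under every alternative that gave a value, and 32 of the other 35 changed it only when a library was left out. There were 14 alternatives, and 13 for CXCL2, CXCL3, ICAM1, IL1R1 and IL6, which have no value at 5 CPM in 3 libraries. Of the 43 that kept their sign with each library left out, 32 moved by over 1.5 times without 1 library. With the replicate block LIF stood at -0.049 for NnK-1 against control and IL6 at 0.31 for CBRV1-10493 against NnK-1. IL6ST for CBRV1-10493 against control stood at -0.00028 with DESeq2's size factors, -0.00089 with at least 5 CPM in 3 libraries and -0.00027 with DESeq2. The other changes of sign came when libraries were left out in turn. For NnK-1 against control these ranges were -0.33 to 0.21 for CCL2, -0.45 to 0.12 for CXCL2, -0.21 to 0.70 for CXCL3, -0.18 to 0.062 for IL1R1, -0.38 to 1.38 for IL6, -0.17 to 0.056 for IL6ST, -0.84 to 0.70 for LIF, -0.018 to 0.10 for NFKBIA, -0.14 to 0.084 for NFKBIB, -0.33 to 0.15 for NFKBIZ, -0.022 to 0.23 for RELA, -0.072 to 0.26 for TRAF1, -0.17 to 0.20 for VCAM1. For CBRV1-10493 against control these ranges were -0.051 to 0.19 for CCL2, -0.89 to 0.46 for CXCL3, -0.78 to 0.73 for ICAM1, -0.0011 to 0.36 for IL1R1, -0.028 to 0.023 for IL6ST, -0.50 to 0.42 for LIF, -0.13 to 0.11 for LIFR, -0.14 to 0.29 for NFKBIB, -0.12 to 0.15 for RELA, -0.31 to 0.058 for VCAM1. For CBRV1-10493 against NnK-1 these ranges were -0.14 to 0.40 for CCL2, -0.066 to 0.028 for CSF1, -1.15 to 0.20 for CXCL3, -0.44 to 0.99 for IL6, -0.055 to 0.17 for IL6ST, -0.66 to 0.62 for LIF, -0.081 to 0.35 for NFKBIB, -0.48 to 0.066 for NFKBIE, -0.30 to 0.097 for OSMR, -0.25 to 0.062 for RELA, -0.011 to 0.055 for TNFAIP2, -0.47 to 0.32 for TNFAIP3. The 95% intervals of CXCL3, ICAM1 and CXCL2, the genes of few reads, were the widest in each comparison.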
